A study of Mus musculus with 5 samples.

Results

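Genes of the splicing machinery and of the proteins that coat nuclear RNA were examined in mouse bone marrow, in 5 sorted samples labelled DC progenitor and gated as FLT3+/CD11b+. Members were all probe sets whose gene symbol begins with Srsf, Hnrnp, Snrp, Sf3a, Sf3b, U2af or Prpf, which gave 72 of 12422 probe sets and 52 genes. They fell into 16 probe sets for SR proteins, 23 for hnRNPs, 10 for snRNP proteins, 10 for the SF3A and SF3B subunits, 3 for U2AF and 10 for PRPF proteins. Of the 72, 1 probe set lists Hnrnpa1 together with a pseudogene, Hnrnpa1l2-ps2, and is counted without a gene name. A further 6 probe sets list a member symbol after another symbol and were not counted as members. The samples are numbered 1 to 5 and form 1 group, with no treatment, genotype, strain, age or pooling given in the labels, and nothing in the labels says that they came from separate animals. The design therefore implies no contrast between conditions, and the questions asked here are which of these genes had signal in the sorted cells and how far the samples differed in them.

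Splicing removes introns from precursor mRNA in the spliceosome, a machine built from small nuclear RNAs and their proteins. The U1 particle binds the start of an intron, the U2AF dimer reads the pyrimidine tract and the AG at its end, and the U2 particle settles on the branch point with the help of the SF3A and SF3B complexes, after which PRPF proteins help to assemble and activate the catalytic core. SR proteins, named for their stretches of serine and arginine, mostly promote the use of exons by binding enhancers, while hnRNPs often repress it, and many genes of either family tune their own mRNA level through alternative exons. In blood formation the pathway is known for recurrent mutations of SF3B1, U2AF1 and SRSF2 in myelodysplastic syndromes. Expression arrays of this kind measure the amount of RNA that binds a probe set and say nothing of which introns were spliced.

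Signals below are deposited intensities after each array was scaled to a common median of 103.4, without error bars for single samples because each sample has 1 array. Means are given as mean ± SD over n = 5 samples. Because probes differ in how well they bind, the signal of one probe set is not set against that of another; each probe set is compared only with itself across samples, or with the median of its array. In the deposited values the column median was 392 in sample 1 and 66.5 to 81.2 in the other samples. The ratio of 3' to 5' signal of the actin control, a measure of RNA or labelling quality, was 1.08, 3.003, 4.15, 5.20 and 2.55 in samples 1 to 5. For the Gapdh control it was 0.896, 1.06, 4.52, 3.42 and 2.01. For the transferrin receptor control it was 3.14, 3.77, 16.7, 8.63 and 5.16. Flt3, the gene of the receptor in the gate, was measured at 571, 1212, 353, 1268 and 318 in samples 1 to 5, and Itgam, which encodes CD11b, at 789, 546, 223, 343 and 486. Of 6 gate and progenitor genes 5 exceeded the array median on every array. All 8 neutrophil genes did so, with Mpo at 6085 ± 2069.8 and Elane at 5823 ± 3524, and their summed signal ran from 61171 in sample 1 to 231429 in sample 4. So did 1 of 4 measured B cell genes (Ighm, while Cd79a was at 91.6 ± 106, Cd79b at 103 ± 79.8), 1 of 4 T cell genes (Cd28, while Cd3e was at 23.7 ± 11.6, Cd3g at 12.4 ± 4.18), none of 4 erythroid genes (Hba-a1 at 128 ± 75.4, Klf1 at 119 ± 81.9) and none of 5 mature dendritic cell genes (Itgax at 96.2 ± 52.4, Cd86 at 124 ± 72.4). In bulk samples fewer cells of a type and less RNA per cell cannot be told apart, which applies to every value below.

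As a class these genes had signal above the array median more often than all probe sets did. Of the 72 probe sets, 53 (73.6%) exceeded the array median on all 5 arrays, against 36.7% of all probe sets. Another 14 did so on some arrays and 5 on none. Counted by gene, for which no share over all genes was computed, 46 of 52 had at least 1 probe set above the median on all 5 arrays. The SF3A and SF3B probe sets were above it in 10 of 10 cases, those of hnRNPs in 18 of 23, snRNP proteins in 7 of 10, U2AF in 2 of 3, SR proteins in 10 of 16 and PRPF proteins in 6 of 10. Of a list of 84 other splicing genes, 67 were measured, and 63 of their 89 probe sets (70.8%) were above the median on all 5 arrays. Among the first of that list, Nono had a signal of 1970.4 ± 257, Tra2b of 1652 ± 375, Snrnp40 of 474 ± 84.99 and Sfpq of 451 ± 66.3 in the brightest of its probe sets.

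**Figure D1:**
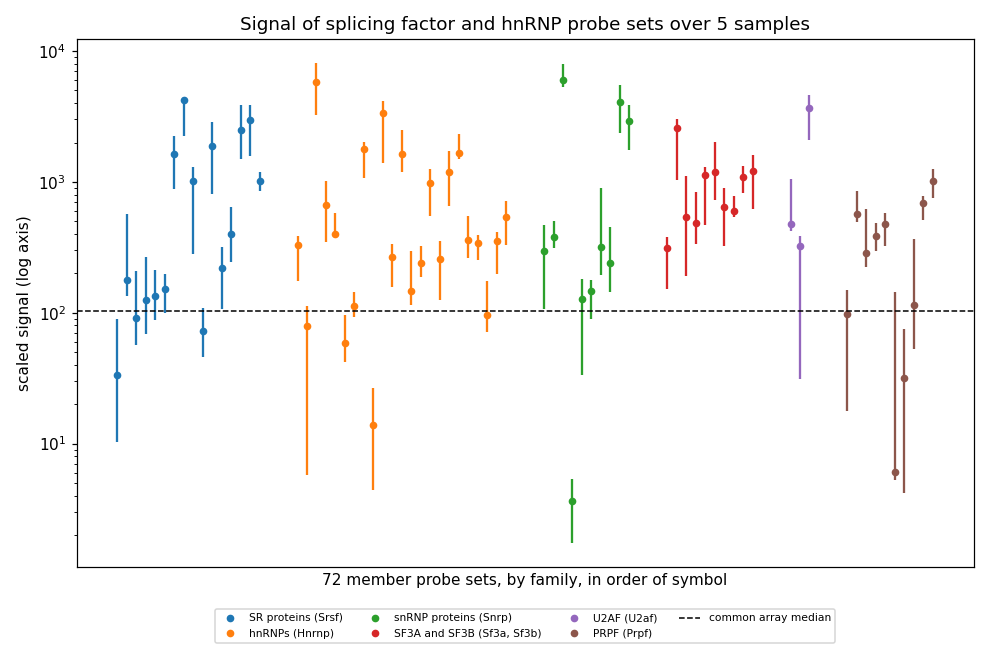
Scaled signal (log axis) of the 72 probe sets by family, in order of symbol; points are medians and bars run from the lowest to the highest of 5 samples. The dashed line is the common array median of 103.4, and 53 probe sets lie above the median of their array in every sample.

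How far the 61 members whose mean lay above the common median varied, set beside all probe sets, depended on the normalization. Their median SD of log2 signal was 0.52, against 0.47 for all 5814 probe sets that passed the same filter. It was 0.40 for 73 probe sets of the other splicing genes. Under quantile normalization these medians were 0.42, 0.45 and 0.36. By family, under median scaling, the median SD was 0.58 for SR proteins, 0.44 for hnRNPs, 0.50 for snRNP proteins, 0.53 for SF3A and SF3B, 0.54 for U2AF and 0.32 for PRPF proteins. Without sample 1 it was 0.21 for the 3 U2AF probe sets and 0.32 for SF3A and SF3B. For all members it was 0.39 without sample 1, and 0.50 to 0.52 without any other sample. The value of all probe sets without sample 1 is not given. Under median scaling, 37 of the 53 members above the median on all arrays had at least 2-fold between their lowest and highest sample. This was a larger share than among all probe sets above the median on all arrays, 2464 of 4555 (54.1%). These counts are not given under quantile normalization, so whether the difference holds there is not known. The median deviation of the 61 members from their own 5-sample mean was -0.19, 0.08, 0.16, 0.22 and -0.15 on the log2 scale in samples 1 to 5. For all 5814 probe sets it was -0.05, 0.07, -0.00304, 0.19 and -0.08. The positive value in sample 4 was thus close to that of all probe sets, and it was 0.04 for the members under quantile normalization, which gives every array the same distribution. In sample 3 the members stayed at 0.21 under that setting, and in sample 1 at -0.12.

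**Figure D2:**
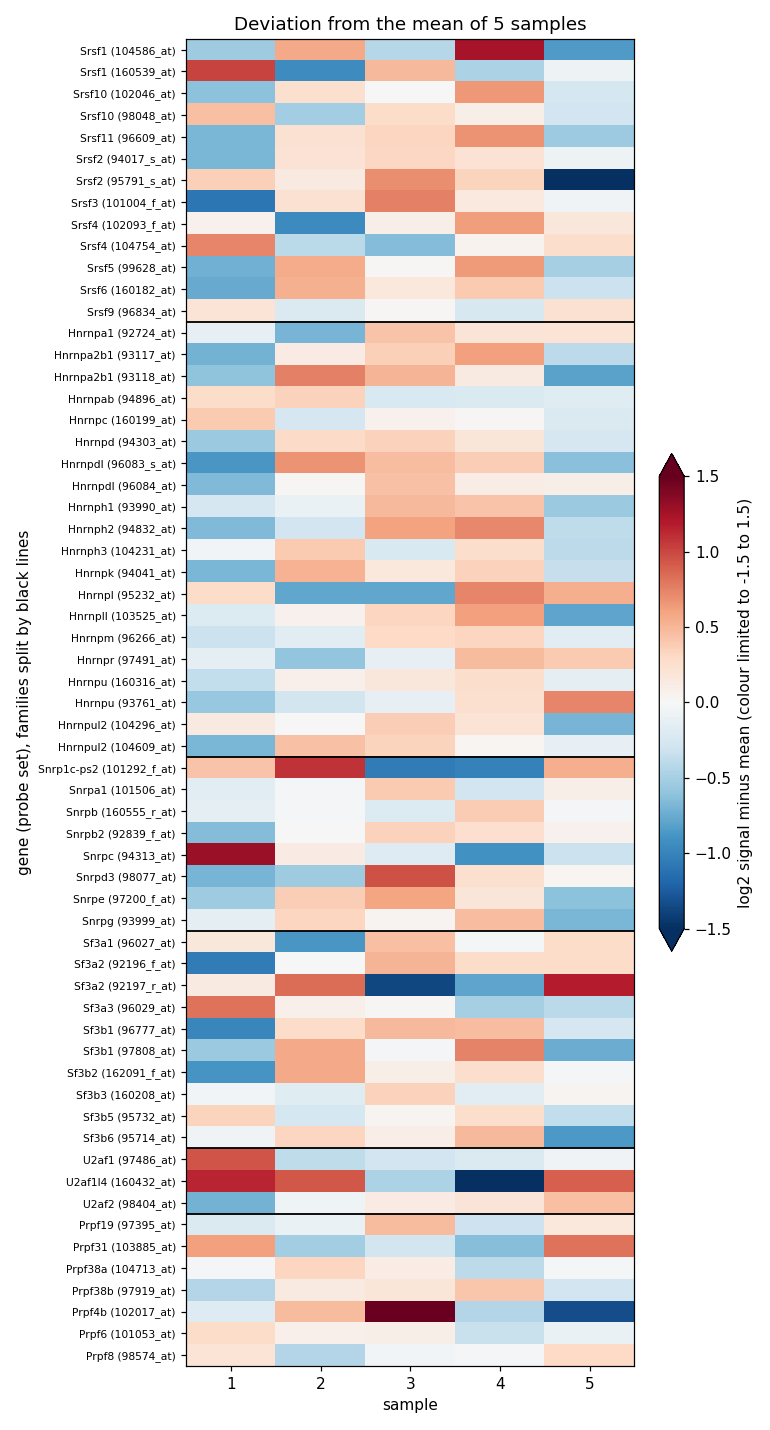
Deviation of log2 signal from the 5-sample mean for the 61 members that passed the filter on mean signal, with samples in columns and black lines between families. Blue cells gather in samples 1 and 5 among SR proteins and hnRNPs. Srsf9, Prpf8, Prpf31 and the probe set 104754_at of Srsf4 are red there, and U2af1 is red in sample 1 but not in sample 5.

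For many members the 2 lowest values lay in samples 1 and 5. Sample 1 was the lowest for 23 of 61 members (37.7%), against 27.9% of all 5814 probe sets, and sample 3 was the highest for 18 (29.5%), against 14.5%. Sample 5 alone was the lowest for 13 (21.3%), against 23.6% of all probe sets. For 24 members (39.3%) the values in samples 1 and 5 were the 2 lowest, against 25.6% of all probe sets. The same held for 25 of 73 probe sets of the other splicing genes (34.2%). SR proteins contributed 7 of 13 and hnRNPs 10 of 20. Under quantile normalization the count of members was 19 (31.1%), all among the 24, against 20.5% of all probe sets and 28.8% of those of the other splicing genes. The 5 probe sets without this order there were 101004_f_at of Srsf3, 94017_s_at of Srsf2, 104609_at of Hnrnpul2 and those of Hnrnph1 and Snrpg. The opposite order, with samples 1 and 5 as the 2 highest, held for 5 members, against 13.8% of all probe sets. This count was 9 without sample 2 and 9 without sample 3. With 1 array fewer either order is met more easily, and no shares over all probe sets are given for those settings. The order was chosen for description after the values were seen. The actin ratio was likewise lowest in samples 1 and 5, and the Gapdh and transferrin receptor ratios in samples 1 and 2. The Gapdh and transferrin receptor ratios were highest in sample 3, and the actin ratio in sample 4. The summed neutrophil signal was lowest in sample 1. Neutrophil genes differed in this, with S100a8 lowest in sample 1 (9540) and Elane highest there (10647). The median deviation of their probe sets was lowest in sample 2, at -0.71 against -0.37 in sample 1. The part of these measures in the order was not tested.

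Promoter windows from RefSeq (build GRCm38.p6) were available for 46 of the 52 genes. Those of 3 members with the 2 lowest values in samples 1 and 5 (Srsf5, Srsf6, Hnrnpa2b1) and of 2 with the opposite order (U2af1, Srsf9) are shown as examples, which do not stand for their groups. Each runs over the 150 bases before the annotated start, with matches on either strand to CCGGAAG (the core bound by ETS factors), TGACGT (a CRE-like element), CCAAT and the NRF1 element in capitals.
Srsf5 (chr12:80945349-80945498, plus strand): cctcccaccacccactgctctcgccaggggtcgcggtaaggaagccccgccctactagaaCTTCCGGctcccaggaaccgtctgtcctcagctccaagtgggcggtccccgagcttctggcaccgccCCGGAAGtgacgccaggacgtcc
Srsf6 (chr2:162931358-162931507, plus strand): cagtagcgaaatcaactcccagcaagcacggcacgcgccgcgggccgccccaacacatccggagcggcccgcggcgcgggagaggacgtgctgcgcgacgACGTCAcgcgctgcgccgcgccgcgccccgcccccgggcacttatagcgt
Hnrnpa2b1 (chr6:51469895-51470044, minus strand): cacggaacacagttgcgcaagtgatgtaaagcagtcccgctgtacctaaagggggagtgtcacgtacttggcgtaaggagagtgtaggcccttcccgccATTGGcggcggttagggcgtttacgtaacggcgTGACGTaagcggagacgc
U2af1 (chr17:31658765-31658914, minus strand): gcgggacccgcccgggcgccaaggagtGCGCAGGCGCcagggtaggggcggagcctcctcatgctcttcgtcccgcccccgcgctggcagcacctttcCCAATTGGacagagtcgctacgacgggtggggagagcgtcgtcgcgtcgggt
Srsf9 (chr5:115327027-115327176, plus strand): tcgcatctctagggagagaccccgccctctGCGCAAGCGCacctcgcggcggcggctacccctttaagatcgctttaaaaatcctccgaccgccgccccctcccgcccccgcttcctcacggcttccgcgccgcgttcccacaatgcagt
The Srsf5 window holds CCGGAAG at 2 places, once on each strand, Srsf6 holds TGACGT as its reverse complement, and Hnrnpa2b1 holds it as written. U2af1 and Srsf9 hold the NRF1 element. In U2af1 the capitals near the start are CCAAT and its reverse complement, which overlap. In the full windows of 300 bases, which reach 50 bases past the start, CCGGAAG was found in 17 of 46 member genes (37.0%), against 17.1% of 6577 genes named on the array and 9.93% of all 27025 genes in the table. TGACGT was found in 14 (30.4%) against 12.6% and 8.37%, and the NRF1 element in 11 (23.9%) against 9.96% and 5.19%. CCAAT, in 23 genes (50%) against 42.5% and 41.1%, and the GC box GGGCGG, in 31 (67.4%) against 63.0% and 38.2%, were nearer to the array's own shares, and TATAAA was found in 5 (10.9%) against 12.2% and 15.7%. Between the 20 genes with their 2 lowest values in samples 1 and 5 and the 26 others, CCGGAAG was found in 7 and 10, TGACGT in 7 and 7 and the NRF1 element in 3 and 8. Of the genes with the opposite order, TGACGT was found for Prpf8, Prpf31 and U2af1, in the last outside the bases shown. The NRF1 element was found for Srsf4, Srsf9 and U2af1. A match is a run of letters and does not show that a factor binds there.

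SR proteins divided into members that were low in sample 1 and members that were not. Srsf5 and Srsf6 bind exonic enhancers. Srsf5 had 1506, 3658, 2513, 3868 and 1759 in samples 1 to 5, the order used for all values below. Srsf6 had 1579, 3868, 2990.3, 3526 and 2135. Either gene was lowest in sample 1, second lowest in sample 5 and 2.57-fold or 2.45-fold higher in its top sample. Srsf11 followed the same order with 876, 1644, 1756, 2238 and 963, as did the probe set 101004_f_at of Srsf3, a small SR protein that also serves in mRNA export, with 807, 1998, 2878, 1888 and 1647 and a range of 3.57-fold. Srsf9, by contrast, was among the steadiest members at 1165, 866, 1023, 853 and 1181, a range of 1.38-fold with its 2 highest values in samples 1 and 5. Srsf4 had 638, 289, 244, 397 and 458 by one probe set, with sample 1 highest, and 216, 107, 219.7, 319.9 and 233 by the other, with sample 4 highest. The median deviation of the 13 SR probe sets was -0.53 in sample 1, yet 7 of the 13 lay below their mean there and 6 above it, against 52.8% of all probe sets below theirs, so this median was not shared across the family. It was -0.22 without sample 4 and -0.31 without sample 2. In sample 5 the median was -0.27 with 10 of 13 below, against 57.0% of all probe sets, and -0.11 under quantile normalization. In sample 4 it was 0.34 with 2 of 13 below, against 32.1% and a median of 0.19 over all probe sets. That value was 0.09 under quantile normalization and 0.17 without sample 5.

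Srsf1, the prototype SR protein, was read by 4 probe sets that did not move together. Only 104586_at was above the median on all 5 arrays, with 167, 359, 179, 572 and 135 and sample 4 highest by 4.25-fold over sample 5. The probe set 160539_at had 266, 68.6, 185, 94.7 and 125, with sample 1 highest, and 160141_r_at had 90.7, 70.7, 208, 118 and 57.1, with sample 3 highest. The remaining one, 101022_at, had 33.7, 89.6, 10.2, 46.8 and 28.8 and was below the median throughout. Srsf2, which is mutated in myelodysplasia, had 2251, 4192, 4474, 4204 and 3434 by 94017_s_at, where sample 1 was lowest. Its second probe set, 95791_s_at, had 1028, 883, 1310.4, 1018 and 279, where sample 5 stood apart on the low side (Dixon's rule at 95%) and sample 1 was second highest. Of 61 members 2 had such an outlying sample, against 6.04% of all 5814 probe sets. Srsf10, a splicing repressor, exceeded the median on 4 arrays by either probe set, with 87.7, 159, 134, 211 and 112 by 102046_at and 197, 99.9999, 174, 153 and 118 by 98048_at, where sample 1 was lowest in the first and highest in the second. The second probe set of Srsf3, 101003_at, had 45.5, 109, 66.8, 72.001 and 95.6 and was above the median on 1 array, with sample 1 lowest as in the first.

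**Figure D3:**
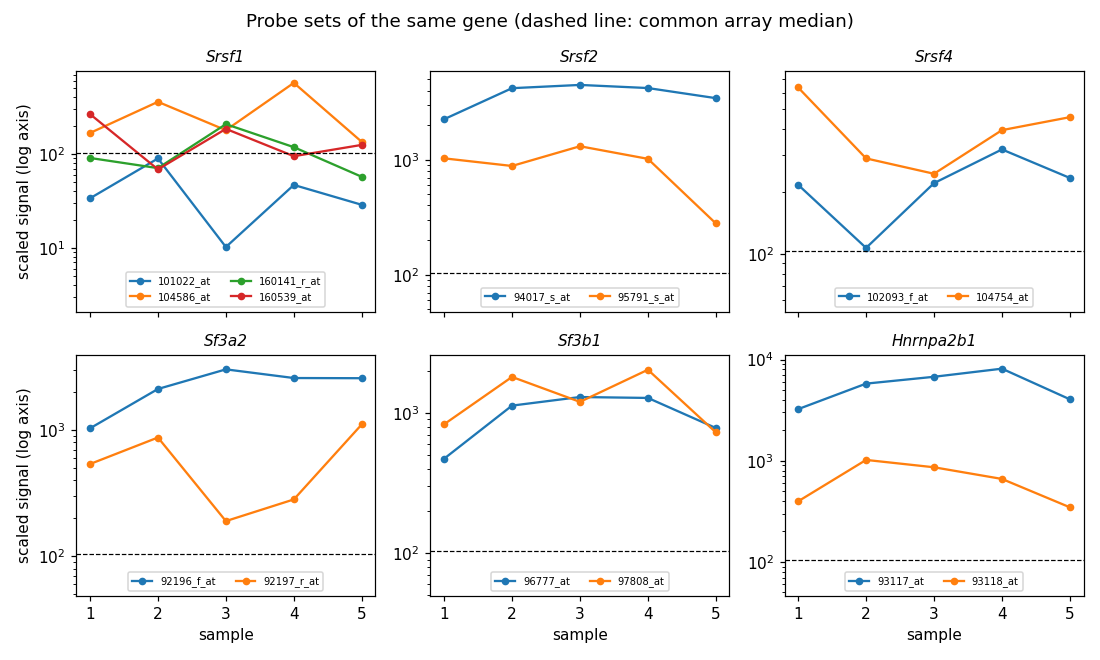
Scaled signal (log axis) by sample of every probe set of Srsf1, Srsf2, Srsf4, Sf3a2, Sf3b1 and Hnrnpa2b1; lines only join the points of 1 probe set, since samples have no order, and the dashed line is the common median. The 2 probe sets of Sf3b1 or Hnrnpa2b1 both dip in samples 1 and 5 but have different highest samples. Those of Srsf1 and Sf3a2 also have different highest samples.

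Among hnRNPs, Hnrnpa2b1, Hnrnpd, Hnrnpk and a probe set of Hnrnpdl had their lowest values in samples 1 and 5. Hnrnpa2b1, a packaging protein of nuclear RNA, had 3237, 5783, 6758, 8128 and 4045 by 93117_at and 397, 1019, 862, 661 and 347 by 93118_at. In each case the values of samples 1 and 5 lay below those of all other samples, with ranges of 2.51-fold and 2.94-fold. Hnrnpdl had 1405, 4118, 3541, 3335 and 1663 by 96083_s_at and, with a smaller range and sample 1 lowest again, 158, 253, 336, 269 and 265 by 96084_at. Its remaining probe set, 161372_f_at, had 14.7, 26.6, 4.44, 13.8 and 9.04, under the floor throughout. Hnrnpd, which binds AU-rich elements and is known as AUF1, had 1072, 1923, 2009, 1793 and 1326, and Hnrnpk, a protein that binds C-rich RNA, 545, 1254, 979, 1115 and 688. Either gene was lowest in sample 1 and next lowest in sample 5. The probe set 101523_at, which lists Hnrnpa3 together with a predicted gene and is no member, had 3706, 8763, 8671, 8779 and 4809 and showed the same order.

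The G-run binding proteins behaved in part alike. Hnrnph1 had 1486, 1646, 2486, 2376 and 1200.2 and Hnrnph2 114, 147, 275, 298 and 138, with samples 3 and 4 highest in either gene. Hnrnph3 differed, with 240.2, 325, 211, 298 and 189 and sample 2 highest. Hnrnpll, a regulator of alternative splicing of the CD45 gene in lymphocytes, had 987, 1189, 1419, 1737 and 656, with sample 5 lowest and a range of 2.65-fold. Its relative Hnrnpl, which binds CA repeats, had 259, 124, 125, 355 and 312 and was lowest in samples 2 and 3, the largest SD of log2 signal (0.73) among hnRNP probe sets above the median on all arrays.

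The remaining hnRNPs differed in how far they ranged, in Hnrnpu and Hnrnpab also between probe sets of the gene. Hnrnpu, which also binds chromatin as a scaffold attachment factor, had 252, 344, 367, 392 and 294 by 160316_at, a range of 1.55-fold; its other probe set had 70.7, 86.6, 96.3, 123 and 174, above the median on 2 arrays and with a range of 2.46-fold, and sample 1 was lowest in either. Hnrnpab had 551, 579, 387, 391 and 399.8 by 94896_at and 42.1, 61.5, 59.04, 96.7 and 41.7 by 95911_at, which was below the median throughout. Hnrnpm had 1485, 1659, 2280.3, 2321 and 1661, a range of 1.56-fold with samples 3 and 4 highest, and Hnrnpr had 356, 260.03, 359.7, 546 and 516, with samples 4 and 5 highest. Hnrnpa1, the best studied repressor of the family, had 261, 175, 383, 327 and 328 by the probe set that lists it alone, with sample 2 lowest. The probe set 100371_at, which lists Hnrnpa1 with a pseudogene, was above the median on 1 array. Hnrnpc, a binder of uridine tracts, lay close to the median throughout at 145, 93.3, 116, 112 and 94.9. Hnrnpul2 had 353, 319, 415, 370.3 and 198 by 104296_at and 328, 718, 667, 538 and 486 by 104609_at, with sample 5 lowest in the first and sample 1 in the second. Over the 20 hnRNP probe sets the median deviation was -0.34 in sample 1 with 16 of 20 below their mean, where 52.8% of all probe sets were below theirs. It was 0.33 in sample 3 with 5 of 20 below (50.3% of all) and -0.24 in sample 5 with 15 of 20 below (57.0% of all). Under quantile normalization these medians were -0.26, 0.36 and -0.15, and without sample 1 that of sample 3 was 0.19.

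**Figure D4:**
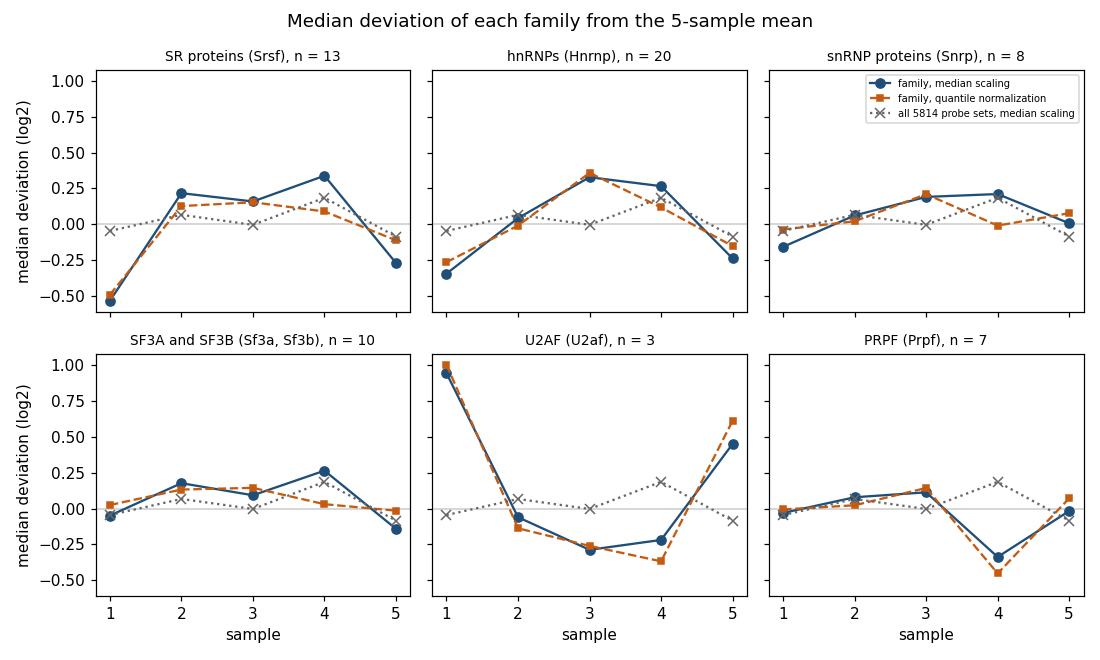
Median deviation of log2 signal from the 5-sample mean for each family (n = probe sets that passed the filter), under median scaling (circles) and quantile normalization (squares), with all 5814 probe sets under median scaling as crosses; lines only join points. SR proteins and hnRNPs lie lowest in sample 1 at -0.53 and -0.34, the median of the 3 U2AF probe sets is highest there at 0.94, and PRPF proteins lowest in sample 4 at -0.34.

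The snRNP proteins include the Sm ring, which all major spliceosomal particles but U6 share, and proteins of single particles. Of the Sm ring, Snrpb was steady at 5544, 5979.5, 5301, 7900.04 and 6027, a range of 1.49-fold. Its other probe set, 161335_r_at, had signals of 1.75 to 5.35, under the floor applied before log2. Snrpe had 2515, 4708, 5472, 4117 and 2378 and Snrpg 2557, 3522, 2901, 3884 and 1754, with samples 1 and 5 as the 2 lowest in either gene; for Snrpg this did not hold under quantile normalization. Snrpd3 had 145, 161, 452, 276 and 239 and peaked in sample 3. The U1 protein gene Snrpc went the other way, with 892, 397, 319, 194 and 292: sample 1 was highest and 4.60-fold above sample 4. The pseudogene Snrp1c-ps2 had 295, 467, 106, 109 and 321, with samples 3 and 4 lowest. A probe set that lists Snrpa, another U1 protein gene, with predicted genes and is no member had 906, 250.4, 347, 322 and 460.5, also highest in sample 1. The U2 protein genes were Snrpa1, steady at 342, 378, 507, 315 and 409, and Snrpb2, with 89.4, 141, 178, 168 and 147 by 92839_f_at and 181, 92.6, 127, 151 and 33.6 by 162026_r_at, which were above the median on 4 and 3 arrays. For the family as a whole the median deviation in sample 3 was 0.19 and turned to -0.08 without sample 5.

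Subunits of SF3B, the complex that grips the branch point, moved unequally. Sf3b1, the large subunit that carries the mutations of myelodysplasia, had 472, 1129, 1301, 1281 and 781 by 96777_at and 831, 1809.7, 1201, 2036 and 728 by 97808_at, with samples 1 and 5 as the 2 lowest in both. Sf3b2 had 326, 894, 639, 722 and 589 and Sf3b6, the subunit that touches the branch adenosine, 1092, 1416, 1215, 1595 and 626. Their 2 lowest values also lay in samples 1 and 5. Sf3b3 was steady at 595, 541, 782, 546 and 630.3, a range of 1.45-fold, and Sf3b5 had 1332, 880.1, 1088, 1269.9 and 816, with sample 1 highest. Of SF3A, Sf3a1 had 314, 152, 382, 273 and 337, lowest in sample 2, and Sf3a3 had 839.8, 501, 483, 338 and 359, highest in sample 1. The 2 probe sets of Sf3a2 opposed each other: 92196_f_at had 1034, 2122, 3036, 2591 and 2583, with sample 3 highest, and 92197_r_at had 539, 875, 190.2, 282 and 1112, with sample 3 lowest by 5.85-fold under sample 5. Here the value of the gene in sample 3 depends on the probe set read.

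U2AF is a dimer, and the genes of its subunits had different patterns. U2af2, the large subunit that binds the pyrimidine tract, had 2079, 3254, 3695, 3884 and 4635, lowest in sample 1. U2af1, the small subunit that reads the AG at the intron's end, had 1061, 424, 453, 475 and 531; sample 1 stood apart on the high side by Dixon's rule and was 2.50-fold above sample 2. The median deviation of the 3 U2AF probe sets in sample 1 was 0.94, and 0.52 without sample 4. Under quantile normalization U2af1 kept its 2 highest values in samples 1 and 5. U2af1l4, a relative of the small subunit, had 386, 334, 126, 31.3 and 326, with sample 4 near the floor of 30.0, so no fold is given.

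PRPF proteins belong to the catalytic core and its assembly. Prpf8, the protein at the heart of the spliceosome, had 1183, 758, 998, 1013 and 1261, with samples 1 and 5 highest and a range of 1.66-fold. Prpf6, which bridges the particles of the tri-snRNP, had 787, 686, 690.01, 515 and 605, lowest in sample 4. Prpf31, a tri-snRNP protein known for mutations in retinitis pigmentosa, had 536, 244, 288, 224 and 616; its values in samples 1 and 5 were separate from the other samples, with a range of 2.74-fold. Prpf38a had 382, 488, 422, 298 and 386 and Prpf38b 322, 481, 494, 582 and 357, with sample 4 lowest in the first and highest in the second. Prpf19, a ubiquitin ligase that helps to activate the spliceosome, had 526, 571, 849, 496 and 684 by 97395_at, highest in sample 3, and 149.9, 72.97, 17.6, 97.2 and 137 by 162235_f_at, lowest in sample 3. The kinase gene Prpf4b had 115, 183, 368, 96.9 and 52.4, above the median on 3 arrays and highest in sample 3. Prpf39, a U1-associated protein, had 6.29, 31.9, 74.9, 68.3 and 4.20 by 97548_at and 76.1, 5.26, 6.05, 145 and 5.60 by 161795_r_at, with different highest samples. The median deviation of the 7 PRPF probe sets that passed the filter was -0.34 in sample 4, with 6 of 7 below their mean where 32.1% of all probe sets were below theirs, and -0.45 under quantile normalization. It was -0.19 without sample 3.

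How far a probe set stands for its gene could be checked for the 16 genes with several. In 7 of them (Srsf1, Srsf3, Hnrnpab, Hnrnpdl, Hnrnpu, Snrpb and Prpf19) some probe sets were above the median on all 5 arrays and others were not. Of the 7 genes with at least 2 probe sets above it on all arrays, 1 (Srsf2) had the same highest sample in both and 1 (Hnrnpdl) the same lowest sample. Like counts over all genes with several probe sets were not made, so whether members differ from other genes in this is not known. Probe set names with the letters f, r or s, which mark probes shared with related sequences or chosen under relaxed rules, made up 18 of the 72. Without them the median deviation of all members was -0.17 in sample 1 and 0.16 in sample 3.

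The level of proliferation genes is given beside these results. Summed signals of the 6 measured cycling genes ran from 8268 in sample 2 to 13167 in sample 4, with Mki67 at 2456, 1647, 2441, 2804 and 1649.7 and Top2a at 969 ± 224. Their median deviations were 0.17, -0.36, 0.18, 0.30 and -0.35 in samples 1 to 5, low in samples 2 and 5. The genes of the list differed in their order. Pcna had 2516, 3262, 3747, 4924 and 2648 and Ccna2 886, 974, 1017, 1156 and 805, with the 2 lowest values in samples 1 and 5. Mki67, Top2a and Cdk1 had theirs in samples 2 and 5, and Mcm5 in samples 2 and 3 by its brighter probe set. The part of cycling in the values of the members was not tested.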

How the data were processed

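Total RNA of 5 samples was measured on 1-colour probe-set arrays, 1 array per sample. The authors deposited an intensity per probe set (12488 in all, linear scale); the software and scaling behind it are not given in the sources used here. After 66 control probe sets were left out, arrays were brought to the same median (103.4) with 1 factor each, a floor was set at 30.0, the 25th percentile over all arrays, and log2 was taken (Python 3.11.15, pandas 2.3.3). Genes were named from the platform annotation: 10833 probe sets had 1 symbol, 396 several and 1193 none. In the absence of detection calls, the limit was the median of each array. Spread and deviation were computed where the mean exceeded the common median. Such counts are descriptions without a test, since the labels give 1 group; the number of arrays limits their precision. Outlying samples were sought with Dixon's rule at 95%. The procedures were tested on simulated data.

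Any member could be named. Values in every sample were to be given for the 2 most and 2 least variable probe sets of each family and all U2AF genes. They were also to be given for genes with an outlying sample and genes with probe sets both above and below the limit. The same was planned for the gate genes, the first 2 genes of each marker list, Mki67 and 4 other splicing genes. Further members were added. For the planned marker genes other than the gate genes and Mki67, and for the 4 other splicing genes, mean and SD are given instead. Members and lists were chosen with earlier results of these data known. Motifs and the order of samples 1 and 5 were chosen after values were seen. Alternatives tried were quantile normalization, unscaled deposited values, a floor at the 10th percentile, no filter on signal, 1 probe set per gene, limits at the 40th and 75th percentile, 3 arrays sufficing, leaving out each sample, and, added after seeing the data, 2 other choices of probe sets. Protein features were not analysed here.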

Additional observations from a re-analysis of the deposited data

Results flagged for a closer look

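By Dixon's rule, which chance meets in about 1 of 20 groups, 1 sample stood apart in 3 of the probe sets named. The Srsf2 probe set 95791_s_at had 279 in sample 5 against 883 or more in the other samples, while the other Srsf2 probe set had 3434 there. U2af1 had 1061 in sample 1 against at most 531 in the others. The T cell gene Cd3e had 38.96 in sample 1, below the array median, with the other values under the floor of 30.0. Those values were set equal to the floor before the rule was applied, so it was bound to flag sample 1. The rate of 1 in 20 does not hold for this probe set.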

How the results depend on the processing

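No paired analysis was possible because the samples form 1 group. With the limit at the 75th percentile, 32 member probe sets and 41 probe sets of the other splicing genes were above it on all 5 arrays; with the other limits, 3 arrays sufficing or 1 sample left out, the counts stayed within 1.5 times. In the values as deposited, where sample 1 keeps its higher level, the median SD of members was 1.05, their median deviations in samples 1 to 5 were 1.73, -0.43, -0.27, -0.42 and -0.50, and 20 members had an outlying sample. There 0 members were lowest in sample 1, 0 highest in sample 3, 0 had their 2 lowest and 11 their 2 highest values in samples 1 and 5. No shares over all probe sets are given for the deposited values or for the limit at the 75th percentile. The counts under these settings are therefore not read as traits of the members. With 1 probe set per gene, or without the suffixes f, r and s, 1 member had an outlying sample. Leaving out sample 2, 3 or 4 gave 6 to 9 members with their 2 highest and 25 to 31 with their 2 lowest values in samples 1 and 5. With 1 array fewer either order is met more easily. Shares over all probe sets are not given there either, so these counts are not read as traits of the members. Leaving out any 1 sample gave median deviations of members from -0.29 to -0.13 in sample 1, 0.01 to 0.12 in sample 2, 0.13 to 0.25 in sample 3, 0.09 to 0.30 in sample 4 and -0.20 to -0.08 in sample 5. Without sample 3 the median of PRPF proteins turned to 0.19 in sample 1 and 0.28 in sample 5. The 5 arrays, with no detection calls, limit what low signals can show.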
